A study of Mus musculus with 32 samples.

Results

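Icam1, Icam2, Vcam1, Itgal, Itgb2, Itga4, Sele and Selp encode ligands, integrin chains and selectins through which leukocytes attach to other cells. These 8 genes were followed in MC38, a mouse line that the labels call a colon adenocarcinoma line, out of 22329 genes in the deposited table. They were listed by name with their levels already known, and selected on a measured value: Icam1 is nearly absent from parental culture. Comparisons that contain the parental cultures are therefore given for these genes as values, with no test. The libraries were 12 subcutaneous tumors of an anti-PD-1 resistant MC38 line, 13 subcutaneous tumors of the parental line, 5 libraries of cultured resistant cells and 2 of cultured parental cells. Tumors grew in C57BL6/J mice, and neither mice nor cultures were treated. PD-1 is the inhibitory T cell receptor that the antibody blocks. The sources used here do not say how the resistant line was derived or whether it is a clone, and give no age for the mice.

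ICAM-1 and ICAM-2 are surface ligands of the leukocyte integrin LFA-1, which is a pair of the alpha L chain (Itgal) and the beta 2 chain (Itgb2). VCAM-1 is the ligand of the integrin VLA-4, in which the alpha 4 chain (Itga4) pairs with beta 1 (Itgb1). E-selectin (Sele) and P-selectin (Selp) catch rolling leukocytes on activated endothelium, and P-selectin is also stored in platelets. ICAM-1 and VCAM-1 are made by endothelium, by stromal and myeloid cells and by some tumor cells, and inflammatory cytokines raise both through NF-kB.

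The unit is TPM, a length-scaled share of a library, so levels can be compared between genes. Read depth is unknown, and precision rests on the spread between libraries. Tumor and culture titles carry different library series, so the setting and the library series cannot be told apart. The labels do not say that the cultures were grown separately, and p-values here rest on library-to-library spread that may be technical in part. Resistant culture replicate 1 stood apart, with a median correlation of 0.957 to the other 4 across genes, against 0.976 to 0.979 for each of those, and results on resistant culture are given with and without it. In 4 parental tumors and 0 resistant tumors GC-rich genes were raised over GC-poor genes (a GC index above 0.5). The 8 colon epithelium markers, Epcam, Cdh1, the keratins Krt8, Krt18, Krt19 and Krt20, Cdx2 and Vil1, summed to 1.49 to 6.63 TPM in resistant tumors, 2.55 to 11.9 TPM in parental tumors, 0.0473 to 0.309 TPM in resistant cultures and 2.62 to 5.17 TPM in parental cultures, so the markers of the labelled tissue were nearly absent. Tumors hold host cells of the same species, and in bulk RNA fewer cells of a type and less RNA per cell cannot be told apart.

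Of the 7 members tested in tumors, Icam1 had the largest log2 difference between the lines. In resistant tumors it had a lowest level of 21.7, a median of 37.1 and a highest of 68.7 TPM, against 5.67, 12.4 and 26.9 TPM in parental tumors. All 12 resistant tumors lay above the parental mean and 9 lay above every parental tumor, so the groups overlapped in part. Of all genes tested in tumors, 0.496% had every resistant tumor above every parental one, and 0.546% every one below. In culture the resistant libraries held 1.30, 7.56, 11.8, 15.4 and 15.4 TPM, while the parental libraries held 0.0435 and 0.114 TPM. Every resistant culture was above both parental cultures, and the lowest of them was replicate 1. In culture 15.9% of 11201 genes had every resistant library above both parental ones, and 17.7% every one below.

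The Icam1 promoter is shown because the gene's level differed between lines in both settings, and the Sele promoter because Sele, another gene that cytokines raise in endothelium, was under 0.5 TPM in every tumor. Both are the 250 bases before the RefSeq transcript start in GRCm38.p6, plus strand, at chr9:21015690-21015939 and chr1:164047984-164048233. Capitals mark letters that match a searched motif on either strand.
Icam1: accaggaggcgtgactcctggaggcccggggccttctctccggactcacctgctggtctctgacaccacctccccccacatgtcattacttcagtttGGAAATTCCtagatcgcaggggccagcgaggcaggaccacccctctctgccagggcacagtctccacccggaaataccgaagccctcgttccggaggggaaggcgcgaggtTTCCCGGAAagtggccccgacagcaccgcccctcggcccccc
Sele: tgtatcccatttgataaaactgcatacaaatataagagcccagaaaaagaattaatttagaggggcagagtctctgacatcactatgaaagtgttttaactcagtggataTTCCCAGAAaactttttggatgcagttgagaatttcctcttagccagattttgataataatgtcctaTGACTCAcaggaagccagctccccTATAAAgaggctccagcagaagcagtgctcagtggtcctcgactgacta
In Icam1 the first run of capitals is GGAAATTCC, 153 to 145 bases before the start, which matches the NF-kB form GGAANTTCC, found in 0.813% of 32851 promoter windows of this length. The second is TTCCCGGAA, 42 to 34 bases before the start, which matches the STAT form TTCNNNGAA, found in 7.02% of them. In Sele the runs are a STAT form at 140 to 132, the AP-1 form TGANTCA at 73 to 67 (6.75% of windows) and the TATA form TATAAA at 49 to 44 (12.4%). The other NF-kB form searched, GGG, 2 free bases, TT, 1 free base and CC (4.11% of windows), was in neither. RefSeq windows were matched for 4 of the 8 members, and of the others Selp held an AP-1 form at 139 to 133 and Itga4 held none of the 5 forms. A match of letters is a description, not a site of binding, and a form that was not found does not show that a site is absent.

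**Figure D1:**
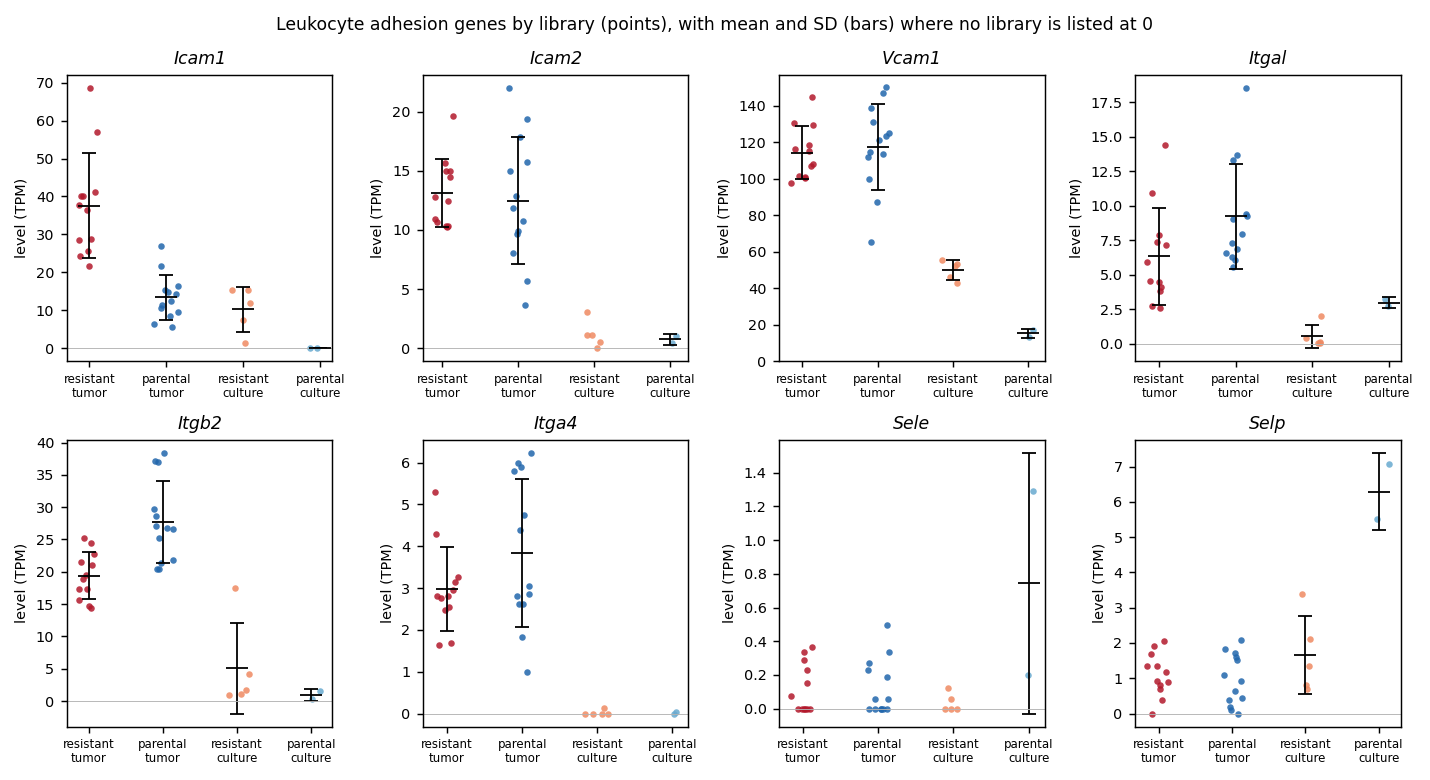
Level in TPM (vertical axes, linear, one scale per gene) of the 8 genes in resistant tumors, parental tumors, resistant cultures and parental cultures. Points are libraries, and black bars are the mean and SD, drawn where no library is listed at 0. Icam1 is higher in both resistant groups than in the parental group of the same setting, Vcam1 overlaps between the tumors, and Selp is highest in parental culture.

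Resistant tumors were compared with parental tumors to see which adhesion genes differ between the lines before any treatment. Icam1, the LFA-1 ligand, rose to 37.5 ± 13.8 TPM (SD, n = 12) in resistant tumors, against 13.4 ± 5.93 TPM (n = 13) in parental tumors. Itgb2, the beta 2 chain that all leukocyte beta 2 integrins share, fell to 19.4 ± 3.65 TPM in resistant tumors, against 27.7 ± 6.36 TPM in parental tumors. Vcam1, the VLA-4 ligand, averaged 114 ± 14.6 and 118 ± 23.6 TPM and did not pass the test. The limma log2 difference of (TPM + 1), resistant minus parental, was 1.45 ± 0.20 (SE, adjusted p = 6.61e-06) for Icam1 and -0.48 ± 0.12 (adjusted p = 0.00290) for Itgb2. Of the 8 members, 7 reached 1 TPM in enough libraries to be tested, and 1 was higher and 1 lower. Over all 12095 genes tested, 30.2% were called, 16.3% as higher and 13.9% as lower, so the share of members called, 2 of 7, was near the background. In a single fit over all 32 libraries Itgb2 lost its call (adjusted p = 0.0949). Without the 4 parental tumors of high GC index, Icam1 gave 1.45 and Itgb2 -0.43, and 4 members were called. In that fit 14.1% of 12175 genes were called higher and 13.4% lower.

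**Figure D2:**
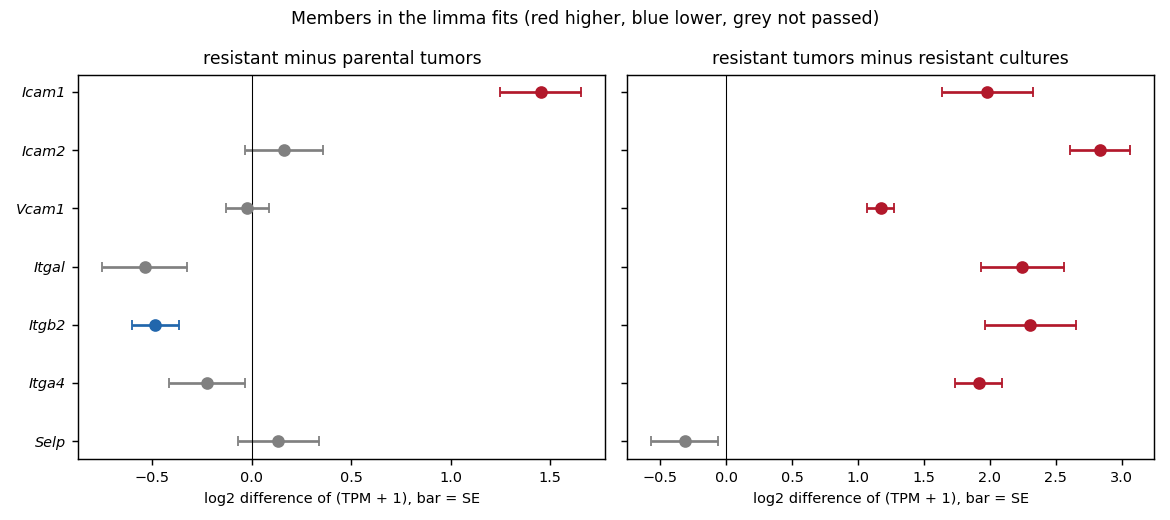
Log2 difference of (TPM + 1) with its standard error (horizontal axes) for the 7 members tested, in resistant minus parental tumors (left) and resistant tumors minus resistant cultures (right). Red marks genes called higher, blue called lower and grey not passed at an adjusted p of 0.05. Icam1 at 1.45 and Itgb2 at -0.48 are the called genes on the left, and 6 of 7 genes are called higher on the right. On the right, Itga4 passed the filter on low values only through the tumors.

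Icam2, the constitutive LFA-1 ligand of endothelium and platelets, ranged from 10.2 to 19.7 TPM in resistant tumors (median 12.6) and from 3.61 to 22.0 TPM in parental tumors (median 11.8). The resistant tumors fell inside the parental range, and the log2 difference was 0.16 ± 0.20 (limma adjusted p = 0.557). As a share of Icam2 in the same tumor, Icam1 was at a median of 2.60 times in resistant tumors and 0.998 times in parental tumors. The 14 endothelial markers, which mark cells that make Icam2, summed to 94.0 to 231 TPM in resistant tumors and 108 to 230 TPM in parental tumors. By limma 0 of 14 were called, with 2 at an unadjusted p under 0.05 and 1 called higher without the parental tumors of high GC index. These markers summed to 2.03 to 20.8 TPM in resistant culture and 11.8 to 18.3 TPM in parental culture. In each culture group 2 of 14 averaged 1 TPM or more, so some do not mark host cells alone here. With the mean of the 14 markers as a covariate the log2 difference of Icam1 was 1.39 (adjusted p = 1.13e-06).

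Itgal, which encodes the alpha chain of LFA-1, had a lowest level of 2.60, a median of 5.25 and a highest of 14.4 TPM in resistant tumors, against 5.60, 7.97 and 18.6 TPM in parental tumors. In 10 of 12 resistant tumors it was below the parental mean, and 6 were below every parental tumor. The log2 difference of -0.54 ± 0.21 did not pass (limma adjusted p = 0.0582), a value so close to the threshold that it was called in 5 of 12 alternatives and in 4 of 25 fits that left out 1 tumor. Itgb2 had a lowest level of 14.5, a median of 19.2 and a highest of 25.2 TPM in resistant tumors, against 20.4, 26.8 and 38.4 TPM in parental tumors. All 12 resistant tumors were below the parental mean and 7 were below every parental tumor. The chains of LFA-1 did not track each other within a line: Pearson r between Itgal and Itgb2 was -0.31 over 12 resistant tumors (permutation p = 0.328) and -0.01 over 13 parental tumors (permutation p = 0.963), with rho of -0.13 and -0.03 (permutation p = 0.683 and 0.921).

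Leukocyte markers also differed between the lines. Of 9 pan-leukocyte markers 7 were lower in resistant tumors and 0 higher, with sums of 339 to 657 TPM in resistant tumors and 310 to 1111 TPM in parental tumors. Of 10 macrophage markers 9 were lower and 0 higher, with sums of 339 to 626 TPM in resistant tumors and 322 to 1350 TPM in parental tumors. Of 4 neutrophil markers tested 1 was higher and 2 lower, and of 2 dendritic cell markers 1 was higher and 1 lower. Of 7 T cell markers tested 0 passed limma, with 1 at an unadjusted p under 0.05, and 2 were lower without the parental tumors of high GC index. Of 5 NK cell markers 3 were lower, and of 3 B cell markers 2. The cultured lines also held transcripts of these lists. Neutrophil markers summed to 80.4 to 179 TPM in resistant culture and 1.84 to 2.34 TPM in parental culture. NK cell markers summed to 7.64 to 11.7 and 8.6 to 9.3 TPM there, and B cell markers to 23.7 to 31.6 and 18.6 to 19.8 TPM. Pan-leukocyte markers reached 131 TPM in resistant culture. Few genes made up these sums. In resistant culture 1 of 7 neutrophil and 1 of 5 NK cell genes averaged 1 TPM or more. So did 2 of 5 B cell and 2 of 9 pan-leukocyte genes. In parental culture the counts were 1, 1, 1 and 4 in that order. Some genes of the neutrophil, NK cell, B cell and pan-leukocyte lists therefore do not mark host cells alone here. The median log2 difference was -0.78 over the pan-leukocyte markers and lower still over the macrophage markers, against -0.48 for Itgb2. The leukocyte markers' part in the results for Itgal and Itgb2 was not tested. With the pan-leukocyte gene Ptprc as a covariate, the log2 difference of Itgb2 was -0.45 (adjusted p = 0.00599). Ptprc itself averaged 27.5 TPM in resistant tumors and 35.6 TPM in parental tumors. That fit cannot decide the markers' part, because Ptprc hardly tracked Itgb2 within a line. Within a line Itgb2 had a Pearson r with Ptprc of 0.03 over resistant tumors (permutation p = 0.928) and 0.24 over parental tumors (permutation p = 0.447), with rho of 0.08 and 0.31 (permutation p = 0.817 and 0.306). Of 7 genes listed as fibroblast and pericyte markers 5 were higher and 0 lower, with sums of 824 to 1602 TPM in resistant tumors and 224 to 1372 TPM in parental tumors. The cultured lines held these transcripts too, at 278 to 871 TPM in resistant culture and 79.2 to 122 TPM in parental culture, so the list does not mark host cells alone here. With Ptprc as a covariate the difference of Icam1 was 1.45 (adjusted p = 1.50e-05). That fit has 1 slope for both lines, but r of Icam1 with Ptprc was -0.71 in resistant tumors and 0.43 in parental tumors. It therefore cannot decide the part of leukocyte content in the Icam1 difference.

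Vcam1 was the most abundant member in every group, and its ranges overlapped those of no other member in either kind of tumor. In resistant tumors it had a lowest level of 97.8, a median of 112 and a highest of 145 TPM, against 65.4, 121 and 150 TPM in parental tumors. The resistant tumors lay inside the parental range, and the log2 difference was -0.02 ± 0.11 (limma adjusted p = 0.90). Icam1 was at a median of 0.288 of the Vcam1 level in resistant tumors and 0.112 in parental tumors. Itga4, the VLA-4 alpha chain, ranged from 1.65 to 5.30 TPM in resistant tumors (median 2.82) and from 1.0 to 6.23 TPM in parental tumors (median 3.05), with a log2 difference of -0.22 ± 0.19 (limma adjusted p = 0.387). Without the 4 parental tumors of high GC index it was -0.48 and called (adjusted p = 0.0362), and it was -0.54 with the index as a covariate (adjusted p = 0.0170). Itgb1, the chain that pairs with alpha 4 and with many other alpha chains, averaged 586 ± 63.1 TPM in resistant tumors and 448 ± 43.1 TPM in parental tumors.

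Both selectins of endothelium were scarce. Sele reached at most 0.365 TPM in resistant tumors and 0.498 TPM in parental tumors, and it was listed at 0 in 6 of 12 and 6 of 13 of them. It failed the filter on low values and was not tested. Selp had a median of 1.05 TPM in resistant tumors (highest 2.06) and 0.916 TPM in parental tumors (highest 2.09), with 1 tumor listed at 0 in each group. The log2 difference was 0.13 ± 0.20 (limma adjusted p = 0.650), and the groups overlapped throughout. The platelet markers, of a cell that stores P-selectin, summed to 14.3 to 34.5 TPM in resistant tumors and 32.7 to 115 TPM in parental tumors, and 2 of 3 tested were lower.

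The order of mean levels in resistant tumors was Vcam1, Icam1, Itgb2, Icam2, Itgal, Itga4, Selp and Sele. In parental tumors Itgb2 stood ahead of Icam1, and the order was otherwise alike. Below Vcam1, each neighbour in the order overlapped the next over tumors in both lines.

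Resistant tumors were then set against resistant cultures, which shows how the levels in the tumor mass differ from those of the line's cells alone. Icam1, Icam2, Vcam1, Itgal, Itgb2 and Itga4 were all higher in the tumors, and Selp did not pass. This made 6 of 7 members higher and 0 lower, where 50.3% of 12312 genes were called, 35.3% higher and 15% lower. Itga4 passed the filter only through the tumors (1 TPM or more in 12 of 12, against 0 of 5 cultures), so the filter favored its call. With quantile normalization the share of calls that were higher fell to 38.9%, against 70.2% without it, and the median of all genes moved to -0.13, against 0.18. Relative to that shift the same 6 members were still called higher, and Selp was called lower (-1.32, adjusted p = 3.15e-05).

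Icam2 averaged 13.1 ± 2.91 TPM in resistant tumors, while the 5 resistant cultures held 1.14, 0, 3.04, 1.12 and 0.487 TPM. Every tumor was above every culture, which held for 17.3% of all genes (4.61% lay below throughout), and the log2 difference, tumor minus culture, was 2.84 ± 0.23 (limma adjusted p = 1.65e-09). Itga4 was at 1.65 TPM or more in every resistant tumor, while 4 of 5 resistant cultures listed it at 0 and the other held 0.126 TPM. Its difference was 1.92 ± 0.18 (adjusted p = 1.79e-08). Itga4 reached 1 TPM in 12 of 12 resistant tumors and 0 of 5 resistant cultures, so it passed the filter only through the tumors. The filter thus favored a higher call, and the p-value is no separate support for these values. No resistant culture reached 0.2 TPM of Itga4, so the cultured cells had hardly any transcript of the VLA-4 alpha chain.

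Vcam1 and Icam1 were present in the cultured resistant cells themselves. Vcam1 averaged 114 ± 14.6 TPM in resistant tumors, while the cultures held 55.6, 53.1, 46.4, 52.1 and 42.8 TPM. All tumors were above all cultures, by 1.17 ± 0.10 (adjusted p = 5.51e-09). Icam1 was higher in the tumors than in the cultures by 1.98 ± 0.35 (adjusted p = 7.99e-05) with no overlap, and by 1.48 (adjusted p = 6.37e-05) without replicate 1.

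Itgb2 had 17.5 TPM in resistant culture replicate 1 and 1.17, 1.75, 4.27 and 0.902 TPM in the other 4, against a lowest level of 14.5 TPM in resistant tumors. Replicate 1 fell among the tumors and the others lay below all of them. The difference was 2.31 ± 0.34 (adjusted p = 1.26e-05), and 2.85 (adjusted p = 8.11e-10) without replicate 1. Itgal had 2.04 TPM in replicate 1 and 0.0797, 0.145, 0.0355 and 0.421 TPM in the other 4, all below every resistant tumor. Its difference was 2.25 ± 0.31 (adjusted p = 4.93e-06), and 2.53 without replicate 1. Ptprc was at 0.147 TPM or lower in every resistant culture, replicate 1 included, while Laptm5, another pan-leukocyte gene, held 15.9 to 128 TPM there.

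Selp had a median of 1.05 TPM in resistant tumors, and the cultures held 1.36, 0.699, 2.11, 0.808 and 3.38 TPM. The groups overlapped, with a difference of -0.31 ± 0.25 (limma adjusted p = 0.319). Of the cell type markers, 14 of 14 endothelial, 9 of 9 pan-leukocyte and 10 of 10 macrophage markers were higher in the resistant tumors. Their part in the members' differences was not tested. Among the other adhesion genes, 6 of 11 ligands were higher and 1 lower, 6 and 0 of 8 integrin chains, 7 and 0 of 11 selectin ligand genes, 15 and 0 of 19 activation genes, 6 and 1 of 11 anchoring genes and 18 and 0 of 26 cytokine and NF-kB genes. Without resistant culture replicate 1 the counts of higher genes were 6, 6, 8, 15, 4 and 16 in that order. In that fit 34.2% of 12547 genes were higher and 14.5% lower.

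The cultures show which members the lines express without host cells. Resistant culture held more Icam1 and Vcam1 than parental culture, and less Itgal and Selp. Sele was also lower there, but only 1 of these libraries, a parental one, reached 1 TPM of it. Vcam1 stood at 42.8 to 55.6 TPM in the 5 resistant cultures and at 17.1 and 13.5 TPM in the parental pair, a log2 difference of 1.65, and of 1.61 without resistant replicate 1. The log2 difference of Icam1 was 3.10, and 3.60 without replicate 1. Both ligands lay above the parental pair in all 5 resistant cultures, as did 15.9% of genes.

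Itgal reached at most 2.04 TPM in resistant culture, against 2.73 and 3.26 TPM in the parental cultures, where Ptprc was at 0 and 0.0441 TPM. All 5 resistant cultures were lower, as for 17.7% of genes, with a log2 difference of -1.50, and of -1.78 without resistant replicate 1. Itgal in parental tumors was at most 0.688 of the level of Itgb2, whereas in parental culture it was 9.79 and 2.01 times that level. Itgb2 overlapped between the cultures, at 0.902 to 17.5 TPM in resistant culture and 0.279 and 1.62 TPM in the parental pair. Selp reached at most 3.38 TPM in resistant culture, against 5.52 and 7.07 TPM in parental culture. Both parental cultures were also above all 13 parental tumors, whose highest was 2.09 TPM. Sele held at most 0.121 TPM in resistant culture, against 0.198 and 1.29 TPM in parental culture.

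In parental tumors against parental cultures, Icam1, Icam2, Vcam1, Itgal, Itgb2 and Itga4 were higher in all 13 tumors than in both cultures. The log2 differences were 3.63 for Icam1, 2.85 for Icam2, 2.84 for Vcam1, 1.28 for Itgal, 3.94 for Itgb2 and 2.16 for Itga4. Selp ran the other way at -1.98. No overlap in the higher direction was seen for 19.6% of 14348 genes in this comparison, and in the lower direction for 8.94%. Against the resistant values above, the resistant line had 1.98 for Icam1, 1.17 for Vcam1 and 2.84 for Icam2. Over all genes 22.1% were called here, 16.1% higher and 5.99% lower. Of the other adhesion genes, 3 of 12 ligands were higher and 1 lower, 4 and 0 of 7 integrin chains, 5 and 1 of 13 selectin ligand genes, 11 and 0 of 19 activation genes, 3 and 1 of 11 anchoring genes and 12 and 0 of 26 cytokine and NF-kB genes. Whether the members' steps differ between the lines was not tested, since the parental cultures served in choosing the genes.

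Within each line, the 8 members were set against Ptprc and against the mean of the endothelial markers across tumors, and 3 pairs of members (Itgal with Itgb2, Icam1 with Vcam1, Sele with Selp) against each other. Benjamini-Hochberg adjustment ran over these 38 relations. By Pearson r 3 relations passed, and by Spearman rho 1. Itga4 tracked Ptprc in parental tumors, with r = 0.90 (permutation p = 3e-05, adjusted 0.00114) and rho = 0.82 (permutation p = 0.00074, adjusted 0.0281) over 13 tumors. Without the 2 tumors farthest from the median of Ptprc r was 0.83, and over the 9 tumors without a high GC index it was 0.83. In resistant tumors r was 0.80 (permutation p = 0.00062, adjusted 0.0118) and rho was 0.74 (permutation p = 0.00767, adjusted 0.10) over 12 tumors, with r = 0.70 without the 2 farthest. Itga4 had r = -0.75 with the GC index over resistant tumors and -0.60 over parental tumors, and the part of the index in these relations was not tested.

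Vcam1 tracked Ptprc in parental tumors by r, at 0.83 (permutation p = 0.00094, adjusted 0.0119), but rho was 0.64 (permutation p = 0.0216, adjusted 0.164). Without the 2 farthest tumors r dropped to 0.55, so the relation rests in part on them, and without the tumors of high GC index it was 0.57. In resistant tumors r was 0.14 (permutation p = 0.667) and rho 0.20 (permutation p = 0.541). Icam1 ran against Ptprc in resistant tumors, with r = -0.71 (permutation p = 0.00969, adjusted 0.0921) and rho = -0.73 (permutation p = 0.00791, adjusted 0.10), which does not pass the adjustment. In the same 12 tumors Icam1 had r = 0.86 with the GC index, and that index was highest in replicates 3 and 12, the tumors with the most Icam1 (57.1 and 68.7 TPM). The part of the GC index in this was not tested. In parental tumors r between Icam1 and Ptprc was 0.43 (permutation p = 0.147).

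**Figure D3:**
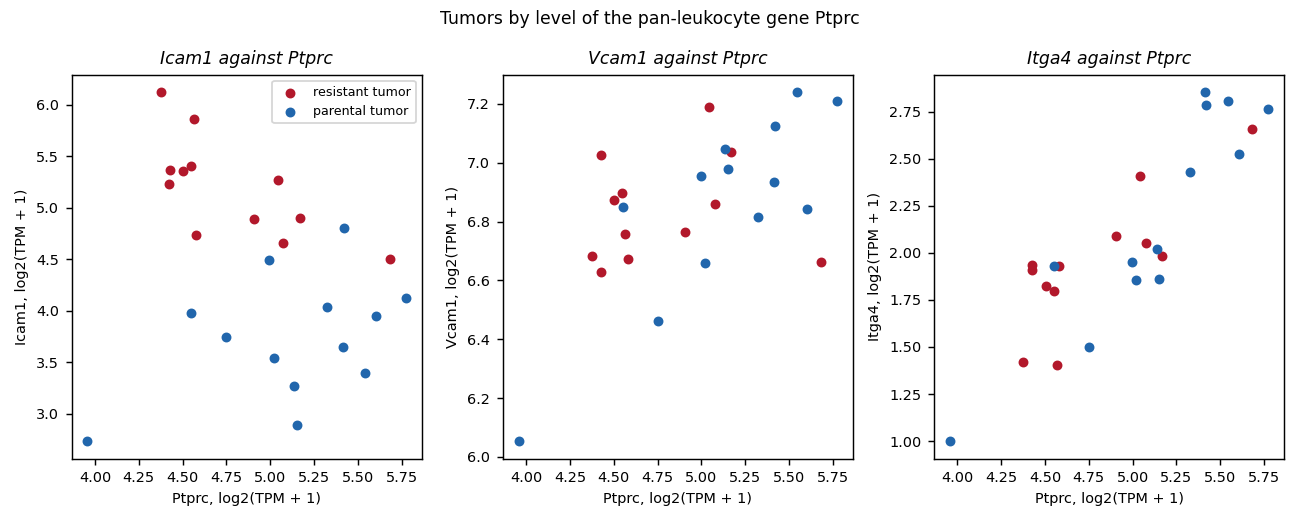
Log2(TPM + 1) of Icam1, Vcam1 and Itga4 (vertical axes) against that of the pan-leukocyte gene Ptprc (horizontal axes), one point per tumor, resistant in red and parental in blue. Itga4 climbs with Ptprc in both lines (r of 0.80 and 0.90), Vcam1 in parental tumors (r of 0.83), and Icam1 lies higher in resistant tumors at a like level of Ptprc.

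The genes whose pattern was most like that of Icam1 across the 25 tumors, after each line was centred on its own mean, were Rnf19b, a ubiquitin ligase (r = 0.79), Ighm, the IgM heavy chain (0.78), H2-M3, a nonclassical MHC class I gene (0.78), Tmsb4x, thymosin beta 4 (0.77), and Cfb, complement factor B (0.77). For Vcam1 they were Ctsc, cathepsin C (0.86), Il2rg, the common gamma chain of cytokine receptors (0.84), Laptm5 (0.83), Csf2rb, a shared cytokine receptor beta chain (0.83), and Cd52, a leukocyte surface protein (0.83). These are the highest of 9770 genes and share libraries with the members, so they are a description.

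Other genes of leukocyte adhesion were counted in resistant against parental tumors, beside a median of 0.04 (log2) over all genes. Over all genes 16.3% were higher and 13.9% lower, and 14.1% and 13.4% without the tumors of high GC index. Of 9 other adhesion ligands and junction genes tested, 2 were higher and 2 lower (median 0.16), and 1 and 2 without the tumors of high GC index. Cd34, which carries selectin ligands on vessels and other cells, fell to 19.0 ± 3.64 TPM in resistant tumors, against 120 ± 22.6 TPM in parental tumors (-2.59 ± 0.11, limma adjusted p = 7.83e-16). It was also lower in resistant culture, at 42.4 ± 42.4 TPM against 205 ± 15.6 TPM in parental culture, where replicate 1 held 118 TPM and the other 4 resistant libraries 20.2 to 27.6 TPM. That call (-2.63, adjusted p = 0.0182) was lost when either parental culture was left out. Pvr, a nectin-like ligand, fell by 0.65 in resistant tumors. Alcam (0.58) and Mcam (0.41), immunoglobulin-family adhesion molecules, were called higher but lost the call without the 4 parental tumors of high GC index, and Mcam kept it in 11 of 25 fits that left out 1 tumor.

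Of 7 other leukocyte integrin chains, 2 were higher and 2 lower (median 0.00). Itgam, the alpha chain of Mac-1, which pairs with beta 2 and also binds ICAM-1, fell to 40.8 ± 11.6 TPM in resistant tumors, against 86.7 ± 28.6 TPM in parental tumors (-1.06 ± 0.18, adjusted p = 5.55e-05), and was at 0.0833 TPM or lower in every culture. Itgb7, a partner of alpha 4, fell by 0.62. Itga1, a collagen-binding alpha chain, rose by 0.86 ± 0.14 (adjusted p = 2.91e-05), and Itgb1 by 0.38 ± 0.07 (adjusted p = 0.000154). The counts were the same without the tumors of high GC index.

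Of 10 selectin ligands and enzymes that build them, 3 were higher and 3 lower (median 0.09), and 0 were higher and 3 lower without the tumors of high GC index. Selplg, the P-selectin ligand of leukocytes, had a median of 20.5 TPM in resistant tumors (highest 28.2) and 40.4 TPM in parental tumors (highest 68.8) and fell by 0.91 ± 0.18 (adjusted p = 0.000449). St3gal6, a sialyltransferase, fell by 1.0, and St3gal4, of the same family, by 0.41, the second without a call when those tumors were left out. Cd44, a hyaluronan receptor that can carry selectin ligands, was 0.29 higher with the same loss.

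Of 18 genes of integrin activation, 3 were higher and 6 lower (median -0.22). Fermt3, the kindlin of blood cells, fell by 0.86, Rassf5, an effector of Rap1, by 0.78, and Skap2, an adaptor, by 0.28, whereas Fermt2, the kindlin of other cells, rose by 0.54. Fermt3 and Skap2 lost the call with the GC index as a covariate. Of 11 genes that anchor or shed the ligands, 2 were higher and 3 lower (median -0.15), and 1 and 2 without the tumors of high GC index. Adam17, the protease that sheds VCAM-1 among many surface proteins, rose to 124 ± 30.9 TPM in resistant tumors, against 75.5 ± 27.4 TPM in parental tumors (0.75 ± 0.17, adjusted p = 0.00156). Cav1, the coat protein of caveolae, fell by 1.09, while Cttn, cortactin, was 0.35 higher and lost its call without the tumors of high GC index.

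Of 26 cytokine and NF-kB genes, 3 were higher and 3 lower in resistant tumors (median 0.05). Tnfaip3, a feedback inhibitor of NF-kB, rose by 0.83 ± 0.18 (adjusted p = 0.000857). Tnf, a cytokine that raises ICAM-1 on many cells, fell to 5.46 ± 1.13 TPM in resistant tumors, against 9.66 ± 3.73 TPM in parental tumors (-0.67 ± 0.16, adjusted p = 0.00184), and Nfkbib, an NF-kB inhibitor, fell by 0.96.

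In resistant against parental culture 14.2% of 11201 genes were called, 6.15% higher and 8.04% lower. Of 22 cytokine and NF-kB genes tested there, 6 were higher and 1 lower (median 0.10, beside -0.01 over all genes). The counts were the same without resistant culture replicate 1, where 8.32% of 11105 genes were higher and 10.7% lower. The cytokine and NF-kB genes below are named after their values were seen. Nfkbia, the NF-kB inhibitor that NF-kB itself induces, held 189 ± 22.7 TPM in 5 resistant cultures and 53.4 ± 10.1 TPM in 2 parental cultures (1.81 ± 0.16, limma adjusted p = 0.000296). Nfkb2, an NF-kB subunit, was higher by 1.24 ± 0.21 (adjusted p = 0.00515), Ifngr2, a chain of the interferon gamma receptor, by 1.15 ± 0.23 (0.0130) and Nfkbie, another inhibitor, by 1.13 ± 0.23 (0.0119). Nfkb1 (0.75, 0.0176) and Relb (0.76, 0.0433) were the other subunits called, and Tnfrsf1b, a TNF receptor, was lower (-1.26, 0.0311). Leaving out parental culture replicate 1 ended the calls of Ifngr2, Nfkb1, Relb and Tnfrsf1b. Leaving out parental culture replicate 2 ended those of Nfkb2, Nfkbie, Relb and Tnfrsf1b, and Relb kept its call in 1 and Tnfrsf1b in 3 of 7 such fits, while Nfkbia kept its call in all 7. Tnf held 0.116 to 1.32 TPM in resistant culture and was listed at 0 in both parental cultures.

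In the other lists, 0 adhesion ligands were higher and 2 lower of 10 tested in culture, 0 and 1 of 4 integrin chains, 2 and 1 of 8 selectin ligand genes, 4 and 3 of 13 activation genes and 0 and 1 of 10 anchoring genes. The pair of lower ligands were Cd34 and Podxl, a relative of CD34 that also carries selectin ligands. Without replicate 1 the ligands had 0 and 3 and the activation genes 3 and 3. Podxl was listed at 0 in most resistant cultures, with a highest level of 0.134 TPM, and held 5.60 and 6.98 TPM in the parental pair. The interaction, the tumor difference between the lines less the culture difference, was called for 4.01% of 15061 genes, 2.4% higher and 1.61% lower, and for 1 of 13 ligands, 1 of 8 integrin chains, 1 of 13 selectin ligand genes, 2 of 19 activation genes, 0 of 11 anchoring genes and 3 of 27 cytokine and NF-kB genes.

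**Figure D4:**
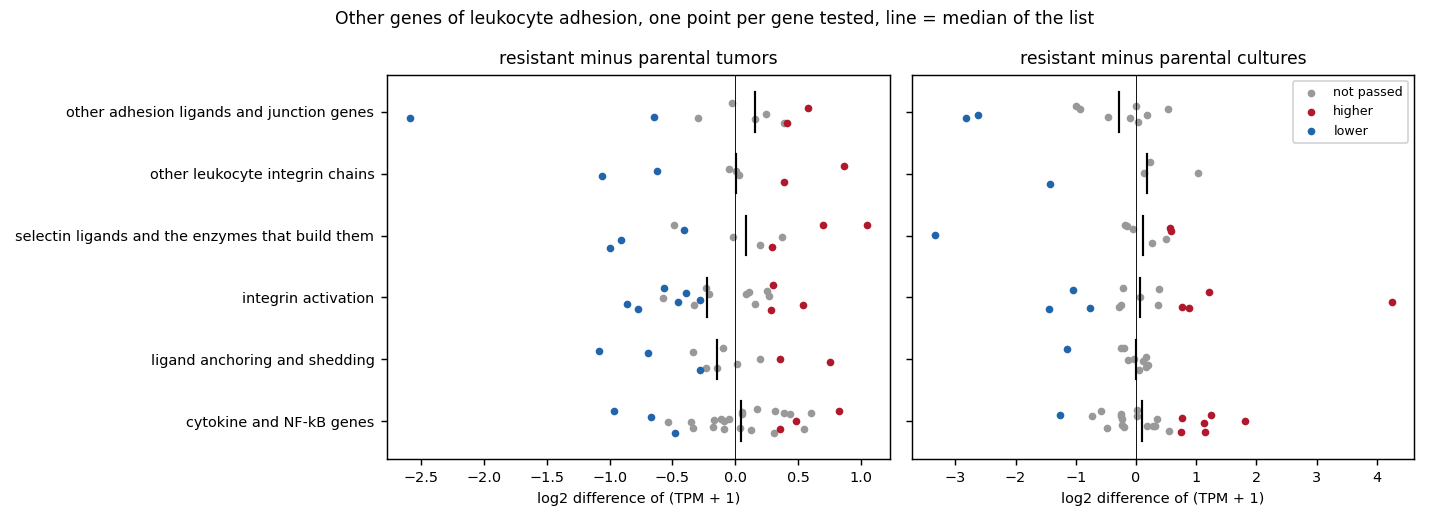
Log2 difference of (TPM + 1) (horizontal axes) for each gene tested in 6 lists of adhesion genes other than the members, in resistant minus parental tumors (left) and resistant minus parental cultures (right). Points are genes (red higher, blue lower, grey not passed) and black lines are list medians. Cd34 at -2.59 is the point farthest left in the tumors, and the 6 red points of the cytokine and NF-kB list lie at 0.75 to 1.81 in the cultures.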

How the data were processed

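Poly(A) RNA was measured in 32 libraries. Values are TPM, which the authors deposited in 1 table by mouse gene symbol, with every column summing to 1000000 and 0 columns unused. Per the labels' protocols, Qiagen total RNA with DNase treatment went into KAPA RNA HyperPrep libraries. STAR and GRCh38, a human build, are named per the submitters' processing notes, and the quantifier and annotation are not given in the sources used here. TPM keep no read totals, so depth is unknown. Values reach down to 8.57e-317, as estimated abundances do.

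Line and setting, read from the labels, gave the groups. Tests ran in limma 3.58.1 (R 4.3.3) on log2(TPM + 1), over only the libraries compared, with empirical Bayes moderation, an intensity trend, two-sided p-values, a threshold of 0.05 and Benjamini-Hochberg adjustment across every gene that entered. This scale understates the change of low genes. A gene entered if its TPM was 1 or more in a number of libraries equal to the smaller group. Permutation p-values used 100000 resamples. The members and lists were chosen with earlier results of these data known. Named were all 8 members, up to 4 called genes per list with the lowest adjusted p in tumors, and the 5 genes most like Icam1 and Vcam1 with mean TPM of 5 or more. Some genes that this rule picks are not reported here. The GC index compares 2515 GC-rich genes (GC above 0.55) with 756 GC-poor genes (GC below 0.42) as a difference of median log2 levels, after centring each gene over tumors. GENCODE transcripts gave the GC content of 98.6% of the genes expressed. Promoters are RefSeq windows of GRCm38.p6.

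Simulated data served as a check, with independent normal noise and changes planted only in genes at a mean above about 5 TPM. The shares found do not cover lower genes such as Itga4 and Selp. With 12095 genes and the tumor groups, 94% of 2-fold and 100% of 4-fold changes were found. With 12312 genes and the groups of resistant tumors and resistant cultures, 86% and 100% were found. Of the calls made, 8.06% and 3.63% were false in the 2 simulations, the first above the 5% that the threshold sets. The alternatives changed the pseudocount (0.1), the filter (none, or 5 TPM), the scaling (quantile, median of ratios), the moderation, the library weights, the covariates or the libraries fitted. Other tools were Python 3.11.15, numpy 2.4.6, matplotlib 3.10.9, pandas 2.3.3 and scipy 1.17.1.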

Additional observations from a re-analysis of the deposited data

Results flagged for a closer look

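In resistant culture, replicate 1 lay far from the other 4 libraries for Itgal (2.04 TPM) and Itgb2 (17.5 TPM), and replicate 4 for Itga4 (0.126 TPM, where the other 4 are listed at 0). Chance flags about 1 in 20 groups of normally distributed values in this way. TPM near 0 are not distributed so, and the rate for them is not known. Replicate 1 also had the lowest Icam1 of the 5 resistant cultures.

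The difference between the lines in tumors minus that in culture passed the test of the difference itself for 8 of the other adhesion genes (limma interaction, log2 with adjusted p), where 4.01% of 15061 genes were called. It was positive for Podxl (2.98, 2.12e-09), Itga1 (2.30, 7.67e-06), St3gal6 (2.35, 0.000399) and Vcl, vinculin (0.92, 0.0305). It was negative for Fyb, an adaptor of integrin activation (-4.82, 9.71e-06), Nfkbia (-1.75, 0.00408), Relb (-1.24, 0.0140) and Tnf (-1.29, 0.0368), whose fitted value depends on the pseudocount since it is listed at 0 in parental culture. Fyb had 118 ± 42.9 TPM in resistant tumors and 225 ± 230 TPM in parental tumors, and 46.1 ± 12.2 TPM in resistant culture and 1.75 ± 1.81 TPM in parental culture (SD). Leaving out parental culture replicate 1 ended the calls of Vcl, Nfkbia, Relb and Tnf, and leaving out replicate 2 ended those of Vcl, Relb and Tnf. Vcl and Tnf each kept the call in 28 of 32 fits that left out 1 library. Podxl, Itga1, St3gal6 and Fyb kept their calls in all 32 such fits.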

How the results depend on the processing

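Icam1 in resistant against parental tumors ranged from 1.39 to 1.68 over 12 alternatives and from 1.37 to 1.54 over 25 fits without 1 tumor, and was called in all of them. The count of members called there, 2 as reported, was 1 in 1 fit over all libraries. It was 4 without the parental tumors of high GC index, where Itgal (-0.68, adjusted p = 0.0356) and Itga4 joined. In that fit 14.1% of 12175 genes were called higher and 13.4% lower. The cause of the change in count was not tested. With Ptprc as a covariate Itga4 was at 0.10, not called. Itgal was called in 5 of 12 alternatives, with -0.69 to -0.47. Leaving out 1 library gave 578 to 2116 genes called in resistant against parental cultures (1590 as reported), with 578 without parental culture replicate 2, 813 without replicate 1 and 1031 without resistant culture replicate 4. In parental tumors against parental cultures the 3169 calls ranged from 1406, without parental culture replicate 1, to 3602, and were 1627 without parental culture replicate 2, and the 604 calls of the interaction ranged from 242, without parental culture replicate 2, to 714. With quantile normalization the share of higher calls in parental tumors against cultures was 47.9%, against 72.9%. Counts that answer a comparison stayed within 1.5 times in 186 further settings. For single genes the outcome was the same in 1742 settings, called in both fits or in neither. A call was lost in 104 settings and gained in 12, and none reversed a call. No paired analysis was possible because replicate numbers follow the order of deposition and pair nothing. Depth is unknown, so levels near 0 cannot be told from absence.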
